A study of Mus musculus with 23 samples.

Results

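The Fc receptor genes described here were *Fcgr1*, *Fcgr2b*, *Fcgr3*, *Fcgr4*, *Fcer1g*, *Fcrls* and *Fcgrt*, 7 of the 18876 genes in the count table of an RNA sequencing study of CD11b+ cells from the mouse hippocampus. They were chosen by gene name, with earlier results of these data known, and 6 were matched by symbol and 1, *Fcrls*, which the table lists as Fcrl2, by its Ensembl identifier. All 7 passed the filter on low counts. The study crossed a microglial knockdown of *Slc11a2*, which encodes the iron importer DMT1, with the APP/PS1 model of amyloid deposition in female mice. Every group, Control included, carried Slc11a2 fl/fl and Cx3cr1 Cre-ERT2+/-. The strain was a mix of 129S;C57BL/6J, and the WT animals were littermates of the hemizygous APP/PS1+ animals. Animals labelled Slc11a2KD had received 4 mg tamoxifen by gavage on 5 consecutive days at 5 to 6 months of age and those labelled Control had received corn oil, so that tamoxifen itself and the knockdown cannot be told apart. Cells were taken at 15 to 18 months of age from both hippocampi by magnetic sorting. The Cre driver is expressed from the *Cx3cr1* locus, which is active in microglia and in other macrophages, so the deletion is not limited to 1 cell type. Main comparisons used 6 Control WT, 6 Control APP/PS1, 5 Slc11a2KD WT and 5 Slc11a2KD APP/PS1 libraries.

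Receptors for the Fc part of antibodies let phagocytes read out which targets IgG has coated. In the mouse *Fcgr1* encodes the high-affinity activating IgG receptor, *Fcgr3* and *Fcgr4* encode activating receptors of lower affinity, and *Fcer1g* encodes the common gamma chain through which all of these signal to the kinase Syk. *Fcgr2b* encodes the inhibitory receptor, which recruits the phosphatase SHIP1 and raises the threshold for activation by IgG complexes. *Fcrls* encodes an Fc receptor-like scavenger receptor known as a marker of homeostatic mouse microglia, and *Fcgrt* encodes the heavy chain of the neonatal Fc receptor, which binds IgG inside endosomes and pairs with beta-2 microglobulin.

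Total counts ran from 31128643 to 54872491 per library with a median of 42267015. Replicate 10 of Control APP/PS1 entered no main comparison. Levels are given as CPM, counts scaled to the size of each library. Those of the 9 microglial markers summed to 32246 to 48418 CPM in all 22 libraries, while markers of T and NK cells had group medians of 2.43 to 4.11 CPM and those of mast cells and basophils summed to at most 5.27 CPM. Total *Slc11a2* did not pass as lower in either comparison of knockdown with Control. Mean *Slc11a2* was 35.1 ± 5.13 CPM (SD) in Control WT and 34.2 ± 4.75 in Slc11a2KD WT (log2 fold change -0.04, SE 0.14, adjusted p = 1). It was 43.2 ± 3.93 CPM in Control APP/PS1 and 56.5 ± 13.5 in Slc11a2KD APP/PS1 (log2 fold change 0.39, SE 0.14, adjusted p = 0.205). Since the floxed allele removes only part of the gene, gene totals do not check the knockdown. The study examined the deletion separately, over the deleted exons and by RT-qPCR, which was not analysed here, and every direction below follows the libraries as labelled. Control libraries carried the numbers 5 to 17, and Slc11a2KD libraries the numbers 1 to 4 and 18 to 23, which the labels do not call batches.

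Of the 7 genes, 4 lie on chromosome 1 in the GRCm39 build. *Fcgr2b* spans chr1:170786186-170804177 on the minus strand, *Fcgr4* chr1:170846466-170857330 on the plus strand, *Fcgr3* chr1:170878738-170893549 on the minus strand and *Fcer1g* chr1:171057141-171062219 on the minus strand. *Fcrls* (chr3:87156616-87181827) and *Fcgr1* (chr3:96190225-96201338) lie on chromosome 3 and *Fcgrt* (chr7:44742412-44756819) on chromosome 7, all on the minus strand. Only *Fcgrt* overlapped another gene in the count table, Gm45669 on the opposite strand, which averaged 0.0310 CPM.

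The inhibitory *Fcgr2b* and the activating *Fcgr3* are near copies over the part of the coding sequence that encodes their extracellular domains. In the GRCm39 reference transcripts 621 of 682 aligned coding bases were identical (91.1%), and the longest identical run was 129 bases. By contrast *Fcgr3* and *Fcgr4* shared 492 of 705 aligned bases (69.8%), with a longest run of 14. A stretch of 120 bases from exon 3 of both genes is printed because it shows how little separates the 2 transcripts there: 119 bases were identical, and the capital marks the 1 that differs. It lies at chr1:170795553-170795672 in *Fcgr2b* and chr1:170885264-170885383 in *Fcgr3*, both on the minus strand, and is given 5′ to 3′ along each transcript.
Fcgr2b: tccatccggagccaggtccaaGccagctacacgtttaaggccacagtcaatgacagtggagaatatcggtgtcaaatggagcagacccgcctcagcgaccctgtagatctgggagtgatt
Fcgr3: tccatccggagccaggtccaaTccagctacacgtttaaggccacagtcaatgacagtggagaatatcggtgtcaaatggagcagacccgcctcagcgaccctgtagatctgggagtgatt
None (0) of the 3254 windows of 150 bases in the canonical *Fcgr2b* transcript was found whole in a *Fcgr3* transcript, nor any of the 1396 windows of *Fcgr3* in *Fcgr2b*. Reads were paired and 150 bases long. The authors counted uniquely mapped reads with STAR, so a shorter or trimmed read identical in both genes would be counted for neither, and the levels of *Fcgr2b* and *Fcgr3* are uncertain to the extent that such reads occurred.

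Promoters were read as the 250 bases before each RefSeq start site (GRCm38.p6) and searched on both strands for GAGGAA, the core of sites for the myeloid factor PU.1, and for TTCNNNGAA, the form of STAT sites known as GAS. The PU.1 core was found in 7639 of 32851 promoters of this length (23.3%) and the GAS form in 2306 (7.02%). Among the members the PU.1 core was found for *Fcgr1*, *Fcgr3*, *Fcgr4* and *Fcrls*, 4 of 7, and the GAS form for *Fcgr1* only, 1 of 7. The 4 promoters printed are those of the 3 genes that were higher in Slc11a2KD APP/PS1 than in Slc11a2KD WT (*Fcgr4*, *Fcer1g* and *Fcgr2b*) and of *Fcgr1*, which held both motifs and was not higher. Capitals mark motif matches, and every sequence runs 5′ to 3′ toward the start site. *Fcgr1* is shown from chr3:96293970-96294219 (minus), *Fcgr2b* from chr1:170976072-170976321 (minus), *Fcgr4* from chr1:171018676-171018925 (plus) and *Fcer1g* from chr1:171234350-171234599 (minus).
Fcgr1: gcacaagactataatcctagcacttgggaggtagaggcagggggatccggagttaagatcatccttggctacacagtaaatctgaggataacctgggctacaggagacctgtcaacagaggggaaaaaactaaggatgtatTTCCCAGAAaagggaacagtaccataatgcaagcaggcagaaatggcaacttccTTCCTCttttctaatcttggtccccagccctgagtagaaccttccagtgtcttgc
Fcgr4: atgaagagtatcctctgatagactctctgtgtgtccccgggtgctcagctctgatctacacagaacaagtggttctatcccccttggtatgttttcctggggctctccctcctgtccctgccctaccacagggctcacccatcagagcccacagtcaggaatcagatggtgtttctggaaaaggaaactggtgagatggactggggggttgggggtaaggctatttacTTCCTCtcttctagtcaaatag
Fcer1g: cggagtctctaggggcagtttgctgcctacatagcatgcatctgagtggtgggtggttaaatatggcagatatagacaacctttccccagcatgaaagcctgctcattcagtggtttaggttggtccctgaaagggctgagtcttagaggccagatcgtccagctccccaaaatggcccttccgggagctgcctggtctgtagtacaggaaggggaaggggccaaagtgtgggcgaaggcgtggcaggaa
Fcgr2b: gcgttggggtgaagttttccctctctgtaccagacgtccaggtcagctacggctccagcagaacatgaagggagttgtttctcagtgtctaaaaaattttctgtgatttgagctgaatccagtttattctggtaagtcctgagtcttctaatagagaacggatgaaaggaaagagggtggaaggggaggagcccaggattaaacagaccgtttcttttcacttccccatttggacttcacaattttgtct
The GAS match of *Fcgr1* (TTCCCAGAA) begins 109 bases before the start, and the PU.1 core, read on the other strand as TTCCTC, lies 55 bases before the start of *Fcgr1* and 22 before that of *Fcgr4*. Promoters of *Fcer1g* and *Fcgr2b* held neither set of letters in this window, so the genes higher in APP/PS1 and the genes with a match were not the same set. A match describes the letters only.

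Levels of the 7 genes differed widely. Per kilobase of canonical transcript, the scale on which genes can be compared, the mean over all 22 libraries was 1018 CPM for *Fcer1g*, 867 for *Fcgr3*, 548 for *Fcrls*, 179 for *Fcgr1*, 97.1 for *Fcgr2b*, 52.3 for *Fcgrt* and 20.7 for *Fcgr4*. The order was the same when the union of exons was used as the length. *Fcer1g* exceeded *Fcgr3* in 18 of 22 libraries and *Fcgr3* exceeded *Fcrls* in 21 of 22, and the ranges of these neighbours overlapped (677 to 1678 for *Fcer1g*, 662 to 1121 for *Fcgr3*, 244 to 974 for *Fcrls*). *Fcgr1* (152 to 220) was set off on both sides, lying below every value of *Fcrls* and above every value of *Fcgr2b* (70.3 to 132). *Fcgr2b* exceeded *Fcgrt* (37.7 to 75.2) in 22 of 22 libraries and *Fcgrt* exceeded *Fcgr4* (6.25 to 66.8) in 21 of 22. Thus the common chain stood at the top of the set and the activating receptor *Fcgr4* at the bottom. *Fcgr4* counts ran from 312 to 4481 per library, and every other member had at least 4515.

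**Figure D1:**
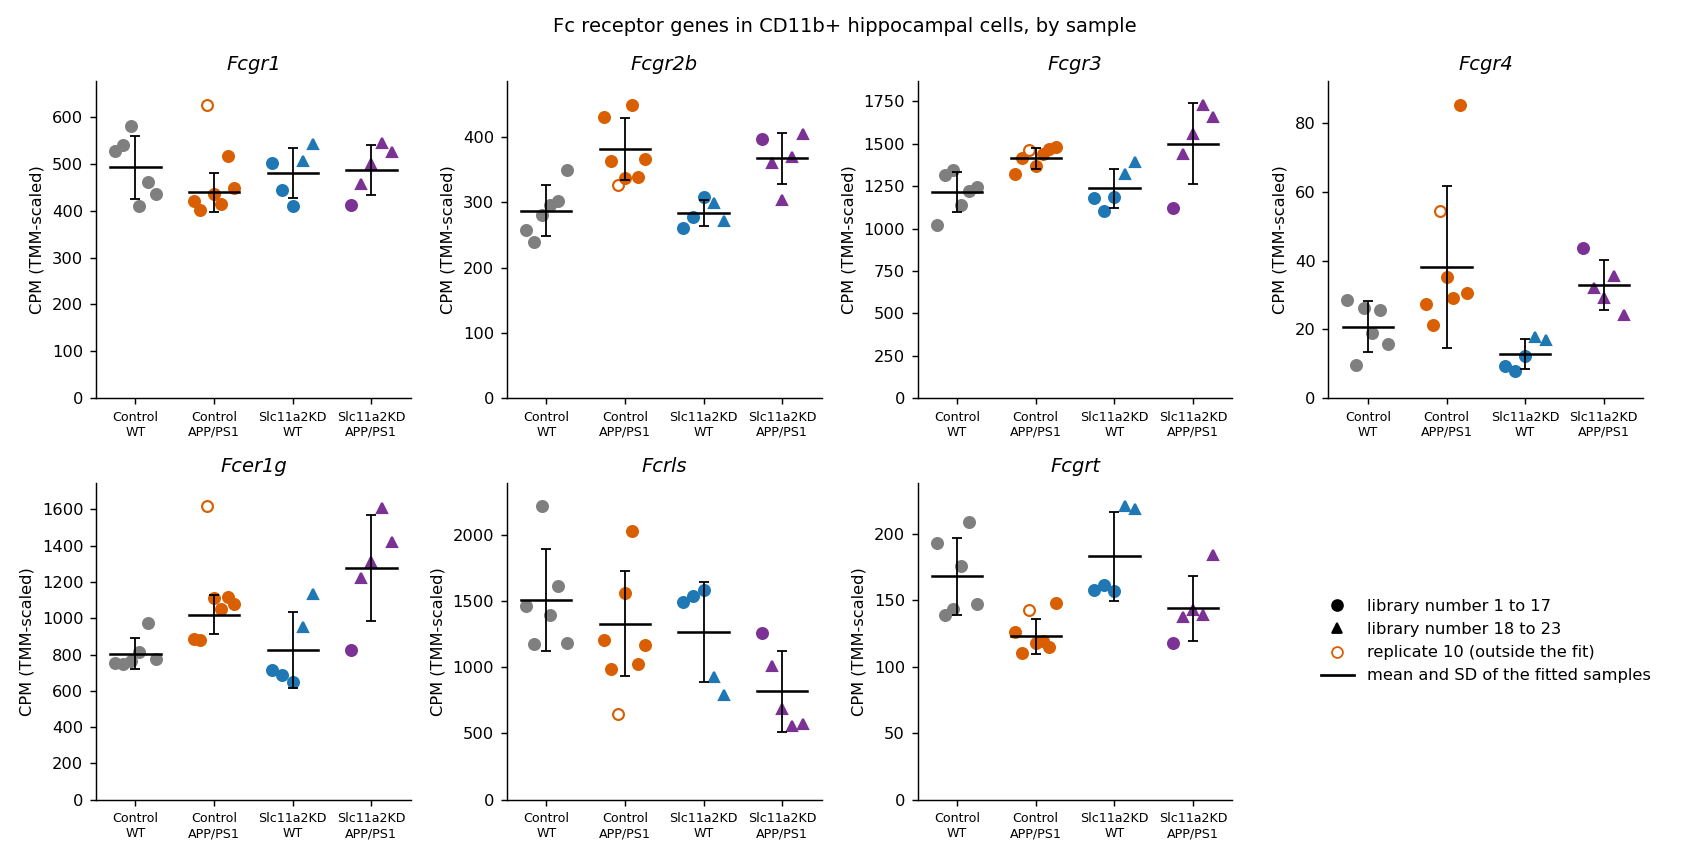
Level of each Fc receptor gene (vertical axes, CPM, 1 panel per gene) in every library of the 4 groups, with the mean and SD; the open point is replicate 10 of Control APP/PS1. *Fcgr4* in Slc11a2KD APP/PS1 (24.1 to 43.7 CPM) lies above every Slc11a2KD WT library (7.99 to 17.8 CPM), while *Fcgr1* overlaps across all groups.

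The first comparison asked how the receptors differ with APP/PS1 in Control animals. The inhibitory receptor *Fcgr2b* rose and the neonatal receptor *Fcgrt* fell, and none of the activating receptors or the common chain passed the test. These were 1 of 7 members higher and 1 of 7 lower at an adjusted p under 0.05 (edgeR), where 5.99% of 18759 genes tested were higher and 4.48% lower. In bulk RNA, fewer cells of a type and less RNA per cell cannot be told apart.

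*Fcgr2b* ran from 239 to 350 CPM in Control WT (median 288) and from 337 to 450 in Control APP/PS1 (median 366). The ranges overlapped slightly, and 4 of 6 APP/PS1 libraries were above every WT library. The difference was 0.41 on the log2 scale (SE 0.10, adjusted p = 0.0115), a fold of 1.33. It held without each library in turn (adjusted p 0.00452 to 0.0390) and fell short under scaling by total counts (log2 0.32, adjusted p = 0.0817).

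*Fcgrt* ran from 139 to 209 CPM in Control WT (median 161) and from 110 to 148 in Control APP/PS1 (median 119), with 5 of 6 APP/PS1 libraries below every WT library. It fell by 0.45 on the log2 scale (SE 0.13, adjusted p = 0.0263). This call rested on single libraries: it was lost without Control WT replicate 6 (adjusted p = 0.0656), 12 (0.0521) or 14 (0.0707) and without Control APP/PS1 replicate 7 (0.0647), 11 (0.0524), 13 (0.0535) or 16 (0.0569), with log2 values between -0.52 and -0.38 throughout. Its partner *B2m* differed by 0.21 (SE 0.09, adjusted p = 0.169). Endothelial cells also express *Fcgrt*. The 5 endothelial markers summed to 161 to 364 CPM in Control WT, 103 to 142 in Control APP/PS1, 137 to 309 in Slc11a2KD WT and 85.1 to 166 in Slc11a2KD APP/PS1, and the part of these cells in the *Fcgrt* values was not tested.

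*Fcgr4*, the scarcest activating receptor, ran from 9.58 to 28.5 CPM in Control WT (median 22.4) and from 21.3 to 85.4 in Control APP/PS1 (median 29.9). The log2 difference of 0.87 (SE 0.30, adjusted p = 0.0656) did not pass the test. One library weighed heavily on it: without Control APP/PS1 replicate 16, which holds the value of 85.4, the difference was 0.46 (adjusted p = 0.278), and without replicate 7 it was 1.00 (adjusted p = 0.0419). It also passed with replicate 10 kept (0.96, adjusted p = 0.0340) and with DESeq2 (0.84, adjusted p = 0.0371).

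*Fcgr3* ran from 1023 to 1343 CPM in Control WT (median 1234) and from 1321 to 1483 in Control APP/PS1 (median 1427). In 5 of 6 APP/PS1 libraries it was above every WT library, but the log2 difference was small (0.22, SE 0.10, adjusted p = 0.172). *Fcer1g* ran from 749.8 to 972 CPM in Control WT and from 881 to 1115 in Control APP/PS1 (log2 difference 0.34, SE 0.15, adjusted p = 0.144). Both passed when the spread was estimated from these 2 groups alone (adjusted p = 0.0378 for *Fcgr3* and 0.0114 for *Fcer1g*) and with limma voom (0.0199 and 0.0168). *Fcer1g* also passed with a term for library numbers of 18 and above (0.0106), but no Control library carries such a number. That term left the difference at 0.34 and reached this comparison only through the spread shared by the fit.

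*Fcgr1* ran the other way in value. It lay between 411 and 580 CPM in Control WT and between 402 and 517 in Control APP/PS1 (log2 difference -0.16, SE 0.10, adjusted p = 0.366). *Fcrls* varied the most among the abundant members, from 1178 to 2215 CPM in Control WT and from 990 to 2025 in Control APP/PS1, with 3 of 6 APP/PS1 libraries below every WT library (log2 difference -0.18, SE 0.23, adjusted p = 0.717). Its difference ran from -0.34 to -0.039 with single libraries left out.

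**Figure D2:**
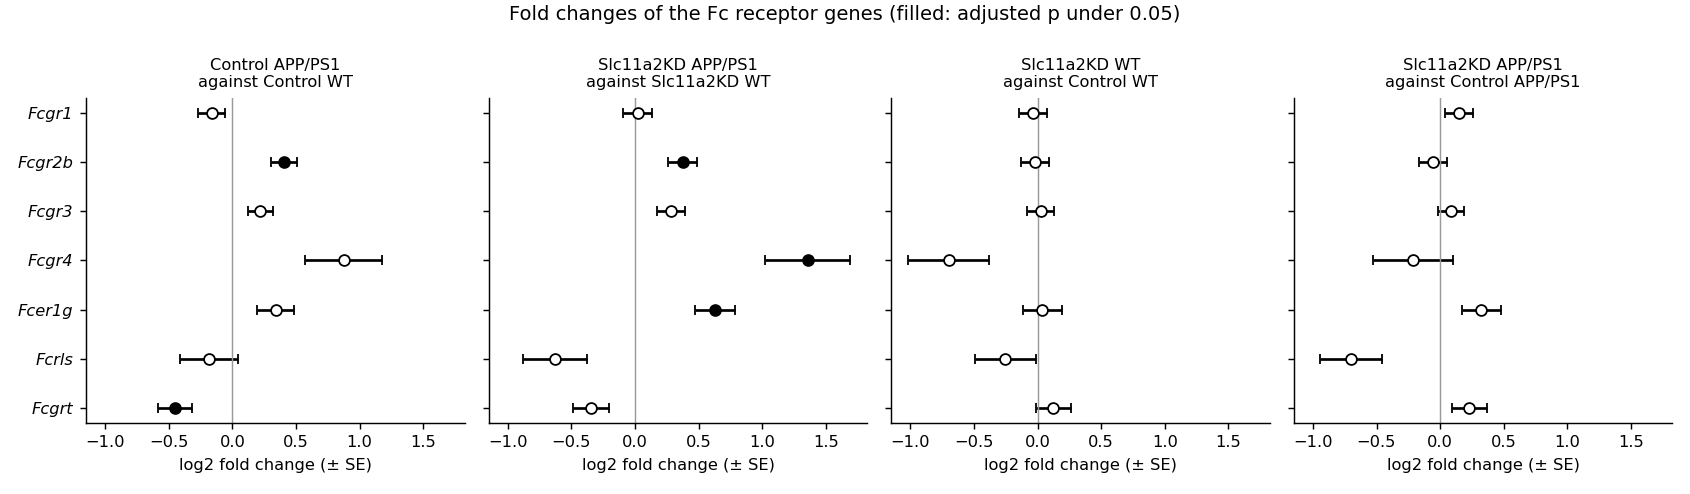
Log2 fold change of each Fc receptor gene (horizontal axes, bars are the SE, filled points have an adjusted p under 0.05) in the 4 comparisons of groups, 1 panel each. *Fcgr2b* is filled in both comparisons of APP/PS1 with WT (0.41 and 0.37), *Fcgr4* has its highest value in the knockdown arm (1.36), and no point is filled in the comparisons of Slc11a2KD with Control.

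The second comparison repeated the test of APP/PS1 within the libraries labelled Slc11a2KD. Here *Fcgr4*, *Fcer1g* and *Fcgr2b* rose, and no member passed as lower, though *Fcgrt* and *Fcrls* did in some alternatives. These were 3 of 7 members higher and 0 of 7 lower, where 9.77% of all genes tested were higher and 6.41% lower.

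*Fcgr4* was 9.28, 7.99, 12.2, 17.8 and 16.9 CPM in Slc11a2KD WT (replicates 1, 2, 3, 19 and 22) and 43.7, 32.0, 29.1, 35.4 and 24.1 in Slc11a2KD APP/PS1 (replicates 4, 18, 20, 21 and 23). The groups did not overlap. The fold was 2.56 (log2 1.36, SE 0.33, adjusted p = 0.00710), and the call held in every alternative run (adjusted p 0.000491 to 0.0270).

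*Fcer1g* was 712, 687, 649, 949 and 1135 CPM in Slc11a2KD WT and 827, 1224, 1310, 1609 and 1418 in Slc11a2KD APP/PS1, in the same order of replicates. The low APP/PS1 value, that of replicate 4, lay inside the WT range, and the other 4 lay above it. The fold was 1.55 (log2 0.63, SE 0.16, adjusted p = 0.00899), and the call was lost when only these 2 groups were fitted (adjusted p = 0.0892).

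*Fcgr2b* was 261, 278, 309, 299.5 and 271 CPM in Slc11a2KD WT and 397, 361, 305, 369.9 and 406 in Slc11a2KD APP/PS1. Replicate 20 alone among the APP/PS1 libraries lay inside the WT range. The fold was 1.30 (log2 0.37, SE 0.11, adjusted p = 0.0263), close in size to that in Control animals. The call was less firm than its size: it was lost without Slc11a2KD WT replicate 1 (adjusted p = 0.0709) or 2 (0.0599) and without Slc11a2KD APP/PS1 replicate 21 (0.0508) or 23 (0.0685), under total-count scaling (log2 0.20, adjusted p = 0.280), with limma voom (0.0633) and with only these 2 groups (0.0840).

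*Fcgr3* was 1182, 1106, 1184, 1321 and 1390 CPM in Slc11a2KD WT and 1119, 1443, 1559, 1732 and 1656 in Slc11a2KD APP/PS1. All but replicate 4 of the APP/PS1 libraries lay above the WT range, and the difference (log2 0.28, SE 0.11, adjusted p = 0.0820) passed without replicate 4 (0.37, adjusted p = 0.00767) or WT replicate 22 (0.33, 0.0382), and with DESeq2 (0.0477) or limma voom (0.0175).

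*Fcrls* was 1491, 1536, 1585, 928 and 787 CPM in Slc11a2KD WT and 1259, 1009, 687, 556 and 573 in Slc11a2KD APP/PS1. The WT libraries fell into a high set (replicates 1 to 3) and a low set (19 and 22). The log2 difference was -0.63 (SE 0.25, adjusted p = 0.0868). It passed without APP/PS1 replicate 4 (-0.84, adjusted p = 0.0155) or WT replicate 22 (-0.76, 0.0297), with DESeq2 (-0.62, 0.0382) and with limma voom (-0.76, 0.0386).

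*Fcgrt* was 158, 161, 157, 221 and 218 CPM in Slc11a2KD WT and 117, 137, 142, 139 and 184 in Slc11a2KD APP/PS1 (log2 difference -0.35, SE 0.14, adjusted p = 0.0986). Its sign was that seen in Control animals, and it passed without APP/PS1 replicate 23 (-0.44, adjusted p = 0.0488), under total-count scaling (-0.51, 0.00916) and with a term for library numbers of 18 and above (-0.50, 0.0107). *Fcgr1* was 502, 444, 409, 505 and 543 CPM in Slc11a2KD WT and 412, 457, 499, 544 and 525 in Slc11a2KD APP/PS1, a log2 difference of 0.02 (SE 0.11, adjusted p = 0.936). Total-count scaling moved the median of all genes by -0.17 in this comparison, and on that scale *Fcgr1* stood at -0.15.

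Library numbers moved with several of these values. Among the Slc11a2KD libraries *Fcrls* was 556 to 1009 CPM in numbers 18 to 23 and 1259 to 1585 in numbers 1 to 4, without overlap. *Fcer1g* was 949 to 1609 CPM in numbers 18 to 23 and 649 to 827 in numbers 1 to 4, and *Fcgr3* was 1321 to 1732 and 1106 to 1184. Of the 5 APP/PS1 libraries 4 carried numbers 18 to 23, against 2 of the 5 WT libraries. Within numbers 18 to 23 the log2 difference of APP/PS1 from WT was 0.78 for *Fcgr4*, 0.41 for *Fcer1g*, 0.33 for *Fcgr2b*, 0.23 for *Fcgr3*, -0.05 for *Fcgr1*, -0.32 for *Fcrls* and -0.55 for *Fcgrt*. Within numbers 1 to 4, where APP/PS1 is replicate 4 alone, it was 2.17 for *Fcgr4*, 0.28 for *Fcer1g*, 0.49 for *Fcgr2b*, -0.05 for *Fcgr3*, -0.13 for *Fcgr1*, -0.29 for *Fcrls* and -0.43 for *Fcgrt*. The 3 genes called higher had the same sign in both runs, but no test was made within a run. Numbers 18 to 23 held 2 WT libraries and numbers 1 to 4 held 1 APP/PS1 library.

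**Figure D3:**
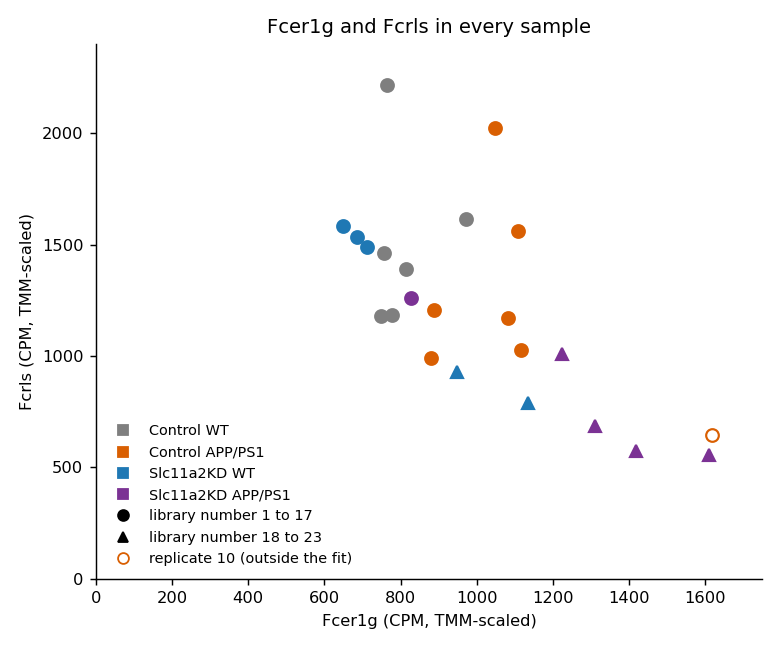
*Fcer1g* (horizontal axis, CPM) against *Fcrls* (vertical axis, CPM), 1 point per library, marked by group and by run of library numbers, with replicate 10 of Control APP/PS1 open. The Slc11a2KD libraries numbered 18 to 23 sit at higher *Fcer1g* (949 to 1609 CPM) and lower *Fcrls* (556 to 1009 CPM) than those numbered 1 to 4.

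Summed levels of markers of other cells were not the same in all groups. Markers of border-associated macrophages, which also carry Fc receptors, summed to 221 to 428 CPM in Control WT, 91.8 to 197 in Control APP/PS1, 258 to 511 in Slc11a2KD WT and 131 to 194 in Slc11a2KD APP/PS1 (7 of 7 markers in the table). Neutrophil markers (6 of 6) summed to 86.4 to 321, 19.8 to 92.2, 94.8 to 502 and 41.0 to 142 CPM in the same order, and monocyte markers (5 of 5) to 23.1 to 81.0, 8.98 to 28.9, 22.0 to 75.4 and 14.5 to 65.6. The sums of these 3 lists were thus on the low side in APP/PS1, where *Fcgr2b* and *Fcgr4* were on the high side, and their part in the results was not tested. Of the neutrophil markers *Ly6g* was at 0 in at least 1 library of every group, while *S100a8* (7.4 to 190 CPM), *S100a9* (7.36 to 177), *Retnlg*, *Ngp* and *Camp* had counts in every library. Choroid plexus markers (9 of 9) summed to 1.09 to 1952 CPM in Control WT, 0.991 to 5.41 in Control APP/PS1, 10.6 to 785 in Slc11a2KD WT and 2.30 to 491 in Slc11a2KD APP/PS1. Within the Slc11a2KD libraries they moved with the library numbers, at 2.30 to 50.9 CPM in numbers 1 to 4, the lowest being replicate 4, and at 89.0 to 785 in numbers 18 to 23, where *Fcer1g* was higher and *Fcrls* lower. Leaving out the WT libraries richest in them (Control WT 12 and 15, Slc11a2KD WT 19 and 22) raised the members called in the knockdown arm to 5, adding *Fcgr3* (0.38, adjusted p = 0.0326) and *Fcrls* (-0.91, 0.0139), while the genes called among all tested rose from 3034 of 18759 to 5135 of 18329. Of Slc11a2KD WT that fit kept replicates 1 to 3, all in numbers 1 to 4. Of the 5 Slc11a2KD APP/PS1 libraries 4 carried numbers 18 to 23, so APP/PS1 and library run largely went together. Slc11a2KD APP/PS1 replicates 18, 20 and 23 (278 to 491 CPM of choroid plexus markers) stayed in. Microglial marker sums were also lower in APP/PS1, 40894 to 47790 CPM in Control WT against 32246 to 37244 in Control APP/PS1, and 42269 to 48418 in Slc11a2KD WT against 34962 to 39734 in Slc11a2KD APP/PS1. Astrocyte markers (4 of 4 in the table) went the other way as a sum, as *Fcgr2b* and *Fcgr4* did. They summed to 5.94 to 22.9 CPM in Control WT and 37.4 to 104 in Control APP/PS1, and to 9.97 to 23.5 in Slc11a2KD WT and 42.3 to 130 in Slc11a2KD APP/PS1, without overlap in either arm, and their part in the results was not tested. *Gfap* made up most of the APP/PS1 sums. It was 26.0 to 89.7 CPM in Control APP/PS1 against 2.05 to 4.37 in Control WT. In the knockdown arm it was 31.6 to 110 CPM in APP/PS1 against 2.17 to 9.27 in WT. *Aqp4*, *Slc1a2* and *Aldoc* overlapped between WT and APP/PS1 in both arms, and *Aqp4* was at 0 in at least 1 library of every group. Oligodendrocyte markers summed to 635 to 2697 CPM in Control WT and 278 to 885 in Control APP/PS1. In Slc11a2KD WT they summed to 905 to 3510 CPM and in Slc11a2KD APP/PS1 to 464 to 1182, and their part in the results was not tested. Neuronal markers summed to at most 2.89 CPM.

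The third comparison set Slc11a2KD WT against Control WT. No member passed (0 of 7, edgeR), and neither did any gene (0% of 18759). At an unadjusted p under 0.05 there were 1110 genes (5.92%). DESeq2 called 10 genes (0.0535%) and limma voom 1 (0.00533%), none of them a member. *Fcgr4* had the lowest value, 12.8 ± 4.40 CPM (SD, n = 5) in Slc11a2KD WT against 20.8 ± 7.30 (n = 6) in Control WT. Its log2 difference was -0.70 (SE 0.32, unadjusted p = 0.0386, adjusted p = 0.786), with 2 of 5 knockdown libraries below every Control WT library. *Fcrls* differed by -0.25 (SE 0.24) and *Fcgrt* by 0.12 (SE 0.14). *Fcgr1* (-0.03), *Fcgr2b* (-0.02), *Fcgr3* (0.03) and *Fcer1g* (0.04) had differences under their standard errors. The sign of each member but *Fcgr4* changed in some alternative, *Fcrls* to 0.03 and *Fcgrt* to -0.06 with the library-number term.

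The fourth comparison set Slc11a2KD APP/PS1 against Control APP/PS1, the contrast between tamoxifen-treated and oil-treated animals with amyloid. No member passed (0 of 7) and no gene did (0%), with 3862 genes (20.6%) at an unadjusted p under 0.05. DESeq2 called 580 of the 4575 genes to which it gave an adjusted p (12.7%), and limma voom 2 genes (0.0107%). Mean *Fcrls* was 1329 CPM in the 6 libraries of Control APP/PS1 (SD 396) and 817 in the 5 of Slc11a2KD APP/PS1 (SD 307), with 3 of 5 knockdown libraries below every Control APP/PS1 library. The log2 difference was -0.70 (SE 0.24, unadjusted p = 0.00799, adjusted p = 0.205, edgeR), and it passed with DESeq2 (-0.67, adjusted p = 0.0495). *Fcer1g* stood at 1020.4 ± 108 and 1278 ± 290 CPM (log2 0.32, SE 0.15, adjusted p = 0.234).

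This comparison turned on 1 library. Without Slc11a2KD APP/PS1 replicate 4, the only one of its group numbered below 18, 3069 of 18700 genes passed (16.4%), and with them *Fcrls* (-0.91, adjusted p = 0.0212) and *Fcer1g* (0.45, adjusted p = 0.0333). With a term for library numbers of 18 and above, which rests on replicate 4 and the Slc11a2KD WT libraries, *Fcer1g* instead stood at -0.24 and *Fcrls* at -0.07, neither past the threshold. With that term *Fcgrt* (-0.12), *Fcgr3* (-0.20) and *Fcgr1* (-0.05) also changed sign, and library run and knockdown cannot be told apart in this comparison. The remaining values without the term were 0.23 for *Fcgrt* (SE 0.14), 0.15 for *Fcgr1* (SE 0.11), 0.08 for *Fcgr3* (SE 0.10), -0.05 for *Fcgr2b* (SE 0.11) and -0.21 for *Fcgr4* (SE 0.31). With single libraries left out they ran from 0.12 to 0.29 for *Fcgrt*, 0.093 to 0.20 for *Fcgr1*, 0.014 to 0.17 for *Fcgr3* and -0.096 to -0.00082 for *Fcgr2b*. The *Fcgr4* value was 0.20 without Control APP/PS1 replicate 16.

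The interaction tested whether APP/PS1 differences were unlike between the arms. No member passed (0 of 7) and no gene did (0%), with 1703 genes (9.08%) at an unadjusted p under 0.05, 25 with DESeq2 (0.134%) and 1 with limma voom (0.00533%). *Fcgr4* differed between arms by 0.48 (SE 0.44, adjusted p = 0.669), *Fcrls* by -0.45 (SE 0.34, adjusted p = 0.599), *Fcer1g* by 0.29 (SE 0.22, adjusted p = 0.599) and *Fcgr1* by 0.18 (SE 0.15, adjusted p = 0.632). With single libraries left out these ran from 0.35 to 0.89, -0.66 to -0.29, 0.19 to 0.43 and 0.13 to 0.24 in the same order. *Fcgrt* (0.10, SE 0.19), *Fcgr3* (0.06, SE 0.15) and *Fcgr2b* (-0.03, SE 0.15) had the smallest values. That *Fcgr4* and *Fcer1g* passed in one arm and *Fcgrt* in the other does not show that the arms differed.

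Because activating and inhibitory receptors both bind IgG, their balance was also computed in each library as the ratio of (*Fcgr1* + *Fcgr3* + *Fcgr4*) to *Fcgr2b* counts. The ratio was 6.11 ± 1.09 (SD, n = 6) in Control WT, 5.04 ± 0.773 (n = 6) in Control APP/PS1, 6.13 ± 0.774 (n = 5) in Slc11a2KD WT and 5.57 ± 1.09 (n = 5) in Slc11a2KD APP/PS1. Ranges overlapped between all groups (4.85 to 7.80, 4.11 to 6.10, 5.20 to 7.19 and 3.97 to 6.85). Per kilobase of transcript the ratio was 7.84 to 15.1 over the 22 libraries, and the tests were made on the count ratio alone. APP/PS1 and WT differed by -0.27 on the log2 scale in Control animals (2-sided exact permutation p = 0.0823, adjusted over 4 comparisons 0.329) and by -0.15 in Slc11a2KD animals (exact p = 0.381, adjusted 0.525). Knockdown and Control differed by 0.01 in WT (exact p = 0.922, adjusted 0.922) and by 0.14 in APP/PS1 (exact p = 0.394, adjusted 0.525). None passed. With single libraries left out the 4 differences ran from -0.34 to -0.20, -0.23 to -0.036, -0.049 to 0.089 and 0.056 to 0.25 in the same order. *Fcgr3* made up most of the summed Fc gamma receptor counts in each group, from 60.2% ± 2.36 in Control WT to 62.6% ± 3.38 in Slc11a2KD APP/PS1. *Fcgr1* gave 24.4% ± 2.85 in Control WT and 19.3% ± 1.32 in Control APP/PS1, *Fcgr2b* 14.3% ± 2.11 and 16.8% ± 2.20, and *Fcgr4* 1.04% ± 0.387 and 1.65% ± 0.948.

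**Figure D4:**
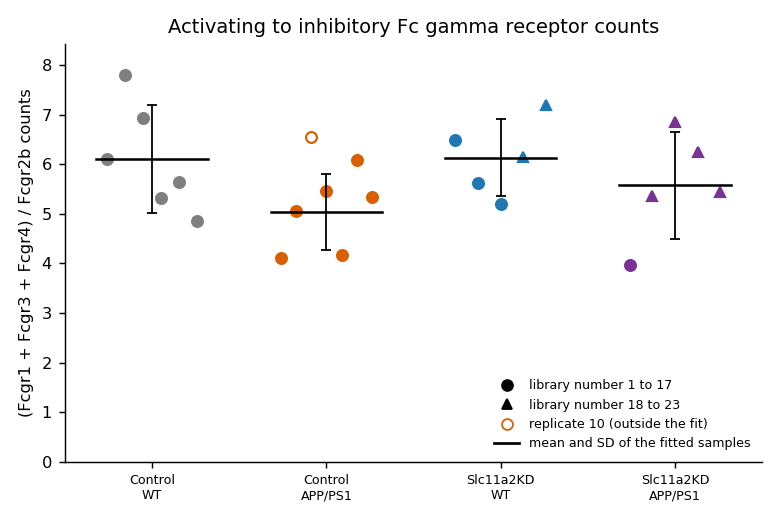
Ratio of activating (*Fcgr1*, *Fcgr3*, *Fcgr4*) to inhibitory (*Fcgr2b*) Fc gamma receptor counts (vertical axis) in each library, with the mean and SD of each group and replicate 10 of Control APP/PS1 open. Means lie between 5.04 and 6.13, and the groups overlap.

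The machinery below the receptors was followed through a list of 37 signalling genes. In Control animals 3 were higher and 2 lower in APP/PS1, where 5.99% of all genes were higher and 4.48% lower, with a median log2 difference of -0.09 against -0.02 for all genes. The count of 5 became 1 with a log2 limit of 1, 15 with only the groups compared, 13 with limma voom, 9 with the library-number term, and 3 without Control APP/PS1 replicate 5, 7 or 13 or without the choroid-rich WT libraries. No Control library carries a number of 18 or above, so the library-number term reached this count only through the spread shared by the fit. *Fgr* (1.44, SE 0.31, adjusted p = 0.00284) and *Fyn* (0.79, adjusted p = 0.0234), Src-family kinases, and *Lat2* (0.74, adjusted p = 0.000985), an adaptor, rose. *Prkcd*, a protein kinase C, fell by 0.52 (adjusted p = 0.00600). The *Fyn* call was lost in 8 of 24 alternatives. The lowest value was that of *Vav3*, a scarce exchange factor (-1.78, adjusted p = 0.275).

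In the knockdown arm 15 of the 37 passed, 5 higher and 10 lower, where 9.77% of all genes were higher and 6.41% lower, and the median was -0.44 against -0.07 for all genes. With a log2 limit of 1 it was 4 (1 higher and 3 lower). With only these 2 groups fitted 4 passed, 3 higher and 1 lower, and with the library-number term 10 did, 5 in each direction. The count was 13 to 24 with single libraries left out, 24 being without Slc11a2KD APP/PS1 replicate 4, and 23 without the choroid-rich WT libraries. *Tyrobp*, the adaptor DAP12 that acts beside the common chain, rose from 1230 ± 317 CPM in WT to 1819 ± 311 in APP/PS1 (log2 0.56, adjusted p = 0.00999). *Fgr* (1.46, adjusted p = 0.00471), *Fyn* (0.98, 0.00867), *Lat2* (0.84, 0.000751) and the adaptor *Sh3bp2* (0.52, 0.00819) were the others that rose. *Syk*, the kinase the common chain recruits, fell from 95.9 ± 39.5 CPM to 45.7 ± 24.8 (log2 -1.07, adjusted p = 0.0127). *Lyn*, which phosphorylates the receptor tails, had a log2 change of -0.94 (adjusted p = 0.00617). The PI3-kinase subunits *Pik3r1* (-1.28, adjusted p = 0.00410), *Pik3r5* (-1.02, 0.0159) and *Pik3cg* (-0.76, 0.0415) fell, as did *Vav2* (-0.78, 0.0116), *Prkcd* (-0.72, 0.000668) and the adaptors *Lcp2* (-0.55, 0.00898) and *Blnk* (-0.44, 0.0477). *Blnk* and *Pik3cg* were lost in 10 of 22 alternatives each. In this comparison *Fcer1g* and *Tyrobp* were thus higher and *Syk* and *Lyn* lower, but none of these 4 calls held when only these 2 groups were fitted (adjusted p = 0.0892, 0.0963, 0.125 and 0.0963). With the library-number term *Syk* stood at -0.57 (adjusted p = 0.0501) and *Lyn* at -0.61, which still passed. Against Control APP/PS1, 0 of the 37 passed. An unadjusted p under 0.05 (edgeR) was found for 17 of the 37, a larger share than the 20.6% of all genes (median -0.31 against 0.01 for all genes). Library run and knockdown cannot be told apart in that comparison.

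**Figure D5:**
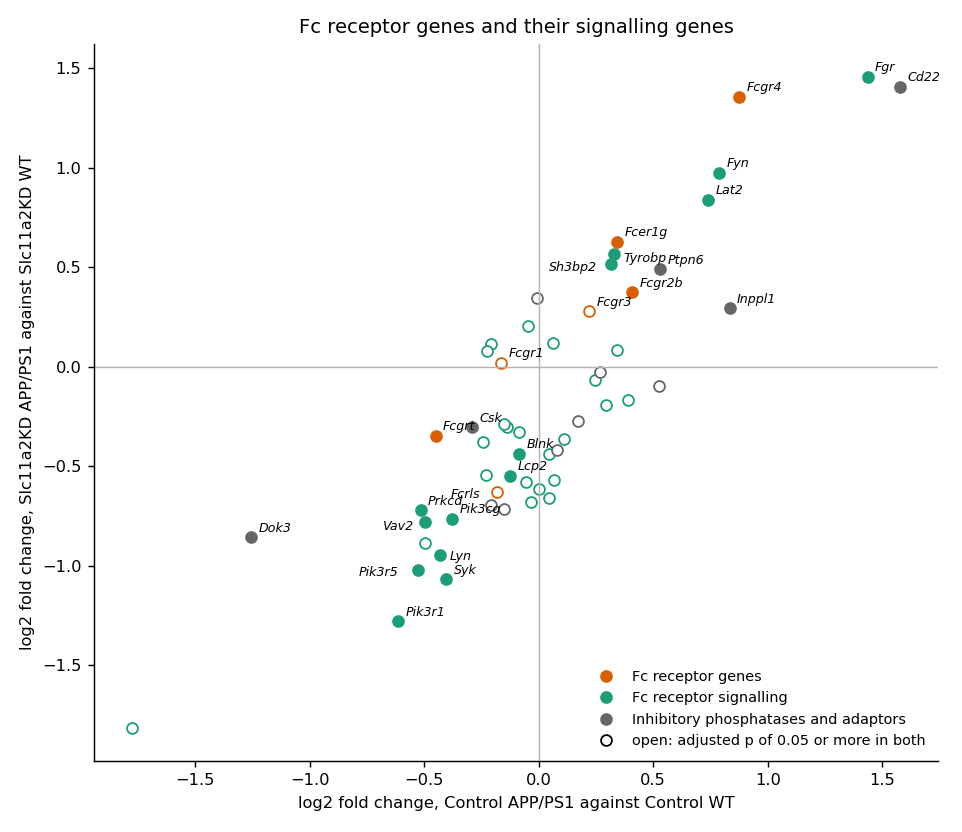
Log2 fold change of APP/PS1 against WT in Control animals (horizontal axis) and in Slc11a2KD animals (vertical axis), 1 point per gene, for the Fc receptor genes, the signalling list without 1 gene not reported here and the inhibitory list; open points have an adjusted p of 0.05 or more in both. *Fgr* (1.44 and 1.46) lies at the upper right with *Fcgr4* (0.87 and 1.36), and *Pik3r1* reaches -1.28 and *Syk* -1.07 on the vertical axis.

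Among 12 inhibitory phosphatases and adaptors 3 were higher and 2 lower in Control APP/PS1, where 5.99% of all genes were higher and 4.48% lower (median 0.13 against -0.02). *Cd22*, a sialic acid-binding inhibitory receptor, rose by 1.58 (adjusted p = 0.000772), *Inppl1*, the phosphatase SHIP2, by 0.83 (0.000670) and *Ptpn6*, the phosphatase SHP-1, by 0.53 (0.000245). *Dok3*, an inhibitory adaptor, fell by 1.26 (adjusted p = 0.000151) and *Csk*, which restrains Src-family kinases, fell by 0.29 (0.0114). In the knockdown arm 2 were higher, *Cd22* (1.41, adjusted p = 0.00452) and *Ptpn6* (0.49, 0.00154), and 2 lower, *Dok3* (-0.86, 0.0103) and *Csk* (-0.30, 0.0126), against 9.77% and 6.41% of all genes, with a median of -0.18 against -0.07. With a log2 limit of 1 the counts of 5 and 4 became 2 and 1. The count of 4 became 8 without Slc11a2KD APP/PS1 replicate 4, and 7 without Slc11a2KD WT replicate 22, with limma voom or without the choroid-rich WT libraries. *Inpp5d*, which encodes SHIP1, the phosphatase *Fcgr2b* recruits, stood at 545 ± 38.1 CPM in Control WT and 471 ± 21 in Control APP/PS1 (log2 -0.21, adjusted p = 0.648).

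Other receptors that signal through the common chain mostly did not pass. Of 9 tested, 0 were higher and 1 lower in Control APP/PS1 (against 5.99% and 4.48% of all genes, median -0.57 against -0.02): the C-type lectin gene *Clec4n* fell by 1.10 (adjusted p = 0.0306). This call was lost in 7 of 24 alternatives, without any 1 of Control APP/PS1 replicates 5, 7 and 11 and Control WT replicates 6, 9 and 12, and with replicate 10 kept (-0.82, adjusted p = 0.123). *Tarm1* had no count in any Control WT library and at most 16 counts in any library. In the knockdown arm 1 was higher, *Cd300c2* (0.75, adjusted p = 0.0160), and 0 lower (against 9.77% and 6.41% of all genes, median -0.33 against -0.07). The *Cd300c2* call was lost in 6 of 22 alternatives, among them the library-number term (adjusted p = 0.0654), only the groups compared (0.0952) and leaving out Slc11a2KD WT replicate 2 or 3 or Slc11a2KD APP/PS1 replicate 21.

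Of 11 other immunoglobulin receptors and related genes tested, 1 was higher and 1 lower in Control APP/PS1 (against 5.99% and 4.48% of all genes, median -2.10 against -0.02, several members being near 0 CPM). *Lgals3*, the lectin galectin-3, rose by 1.81 (adjusted p = 0.00551) and *Fcrl1* fell by 0.80 (0.0299), a call lost in 8 of 24 alternatives, among them leaving out Control WT replicate 9 or 15 or Control APP/PS1 replicate 5, 7, 16 or 17. The lowest value was that of *Fcrl5* (-4.13, adjusted p = 0.230), with at most 35 counts in any library. In the knockdown arm *Lgals3* (2.998, adjusted p = 0.000148) and *Fcrlb* (2.04, 0.0232) were higher and *Fcrl1* (-0.90, 0.0196) was lower (against 9.77% and 6.41% of all genes, median -0.13 against -0.07). The *Fcrlb* call was lost in 7 of 21 alternatives and that of *Fcrl1* in 4 of 22, and the count of 3 became 1 with the library-number term and without Slc11a2KD WT replicate 1 or Slc11a2KD APP/PS1 replicate 20. *Lgals3* held its call in all alternatives run in both arms. The alpha and beta chains of the IgE receptor, *Fcer1a* and *Ms4a2*, which need *Fcer1g* in mast cells, had counts in 7 and 5 of 22 libraries, with at most 27 and 25 counts.

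The ligands were represented by immunoglobulin genes, of which 9 were tested. None was called in Control animals (0 of 9, edgeR, with 3 at an unadjusted p under 0.05), where 5.99% of all genes were higher and 4.48% lower. In the knockdown arm 1 was lower, *Ighd* (-1.18, adjusted p = 0.0187), where 9.77% of all genes were higher and 6.41% lower. The *Ighd* call was lost in 6 of 22 alternatives, which left 0, with the library-number term (adjusted p = 0.0773), only the groups compared (0.0887) and without Slc11a2KD WT replicate 1 or 2 or Slc11a2KD APP/PS1 replicate 21 or 23. Medians were -1.71 in Control animals (against -0.02) and 0.62 in the knockdown arm (against -0.07). *Ighm* was the only abundant one, at 282 ± 37 CPM in Control WT and 345 ± 27.1 in Control APP/PS1 (log2 0.30, adjusted p = 0.0969), while *Ighg2b* had at most 29 counts in any library. Of the B and plasma cell markers besides *Ighm*, *Cd79b* stood at 9.70 to 25.0 CPM in every library, while *Mzb1* and *Jchain* were at 0 in at least 1 library of every group. *Tarm1*, *Ms4a2* and *Iglc1* had no count in 1 whole group each, and setting them at a bound of 3 counts over that group left the medians of their lists the same.

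Likeness across libraries was described by correlating deviations from group means over the 22 libraries, for 11888 genes with a mean of at least 1 CPM. These points share library depth, composition and run of library numbers, and no test was made. *Fcer1g* had the closest companions, *Ran* (r = 0.964), *Txn1* (0.964) and *Ndufa3* (0.963). For *Fcgr3* they were *F11r* (0.877), *Gemin7* (0.869) and *Ppih* (0.853), for *Fcgr1* *Ppox* (0.860), *Kcnk13* (0.814) and *Cd300a* (0.805), and for *Fcgrt* *Dhrs1* (0.834), *Cln6* (0.834) and *Gpaa1* (0.831). *Fcrls* was most like *Csf3r* (0.821), *Lag3* (0.812) and *Khsrp* (0.811), *Fcgr4* like *Ms4a6d* (0.798), *Oas1a* (0.765) and *C1qa* (0.753), and *Fcgr2b* like Gm10033 (0.767), *Bcl7a* (0.767) and *Rbm45* (0.706). *F11r*, named for *Fcgr3*, begins at chr1:171265092, on the chromosome of *Fcgr3*. *Ppox*, named for *Fcgr1*, begins at chr1:171100969, while *Fcgr1* lies on chromosome 3. The companions of *Fcer1g* lie on chromosomes 5 (*Ran*), 4 (*Txn1*) and 7 (*Ndufa3*), and a link with position was not tested.

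Among the members themselves *Fcgr3* and *Fcer1g* deviated together (Pearson's r = 0.754, Spearman's rho = 0.689, r = 0.666 without the 2 libraries farthest from the median). *Fcer1g* and *Fcrls* deviated in opposite directions (r = -0.592, rho = -0.573), less so without the 2 farthest libraries (r = -0.380). *Fcgr1* and *Fcgr2b*, the activating and inhibitory receptors, had r = -0.501 (rho = -0.456, r = -0.488 without the 2 farthest libraries).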

How the data were processed

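Poly(A) RNA from CD11b+ hippocampal cells was sequenced as paired reads of 150 bases. The submitters' processing notes name Trim Galore 0.6.7, STAR and DESeq2 1.36.0 and the build mm39. The authors deposited a table of raw counts per gene for 23 libraries and a second table of the same counts divided by a size factor (a normalized signal), which was used only for gene names and to check the first (largest relative gap 5e-15). No gene symbol was given for 80 rows of counts. Groups were read from the sample labels. Replicate 10 of Control APP/PS1 was left out, since the study removed a sample and this one was the one absent from its plotted data. The study's methods call the libraries biological replicates, from separate mice. No 2 libraries were alike (253 pairs, highest r 0.992).

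From the counts, the 18759 genes that reached 5 counts in 3 or more libraries were scaled by TMM, converted to CPM and fitted over all 4 groups with edgeR 4.0.16 (quasi-likelihood test, Benjamini-Hochberg adjustment over all genes tested, threshold 0.05). Unless another tool is named, every adjusted p is edgeR's. No per-sample values outside the mapped columns were left unused (0 columns). Ratios were compared on the log2 scale by a 2-sided exact permutation test of the difference in means. Scripts were tested on simulated data. Alternatives were DESeq2 1.42.0, limma voom (limma 3.58.1), other scalings and filters, a log2 limit of 1, leaving out each library, fitting only the groups compared, keeping replicate 10, a term for library numbers of 18 and above, and leaving out 4 WT libraries rich in choroid plexus markers. Levels per kilobase used the canonical transcript of the GRCm39 annotation.

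The members and the lists were chosen with earlier results of these data known. All 7 members are named. Of each further list, the rule named the genes past the threshold in Control APP/PS1 against Control WT (up to 6) and those at its ends, and the genes named for the Slc11a2KD arm were chosen after their values were seen. Of the genes past the threshold in the signalling list, 1 is counted but not reported by name here. For likeness, the 3 genes with the highest correlation were named for each member.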

Additional observations from a re-analysis of the deposited data

Results flagged for a closer look

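Among 32 sets of libraries examined (each member in each group, and the ratio), 2 had a library far from the rest, where chance gives about 1 in 20. *Fcgr4* in Control APP/PS1 replicate 16 was 85.4 CPM, and its gap to the next library was 0.640 of the range of the group on the log2 CPM scale. Without it the *Fcgr4* difference between APP/PS1 and WT in Control animals was 0.46 on the log2 scale instead of 0.87. *Fcer1g* in Control WT replicate 14 was 972 CPM, with a gap of 0.681 of the range on the same scale. Both gaps are above Dixon's 95% limit for 6 libraries.

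Replicate 10 of Control APP/PS1, which entered no main comparison, held the highest value among Control libraries for 2 members. *Fcgr1* was 627 CPM and *Fcer1g* was 1618 CPM there, both scaled together with the other 22 libraries. *Fcrls* was 644 CPM there on the same scale, below every other Control library (lowest 981), so that this oil-treated library, like the Slc11a2KD libraries numbered 18 to 23, had high *Fcer1g* beside low *Fcrls*. Its monocyte markers summed to 112 CPM and its B and plasma cell markers to 546 CPM, against at most 81.0 and 401 in the other Control libraries.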

How the results depend on the processing

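No paired analysis was possible because the groups compared share no replicate numbers. Of 875 recomputed log2 values of the members, 787 kept their direction and their side of the threshold, 20 kept the direction but no longer passed, 24 passed in the alternative alone and 44 changed sign. The cause of these shifts was not tested.

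Among 1965 genes called in Control APP/PS1 against Control WT, a log2 limit of 1 left 918, limma voom gave 3421 and fitting only the groups compared 3241 (single libraries left out, 1561 to 1969). Members called there, 2 in all, became 0 under the log2 limit, 1 under total-count scaling, 4 with limma voom and 4 with only the groups compared (1 to 2 with libraries left out). In Slc11a2KD APP/PS1 against Slc11a2KD WT the 3034 genes became 1105 under the log2 limit, 1773 with the library-number term, 5135 without the choroid-rich WT libraries and 1041 with only the groups compared (1977 to 4781 with libraries left out). The 3 members became 1 under the log2 limit, 5 with DESeq2, 5 without the choroid-rich libraries and 1 with only the groups compared (2 to 5 with libraries left out). For Slc11a2KD WT against Control WT the gene count of 0 became 10 with DESeq2, 1 with limma voom and 2 without the choroid-rich libraries (0 to 1 with libraries left out). For Slc11a2KD APP/PS1 against Control APP/PS1 it became 580 with DESeq2, 2 with limma voom and 1 without the choroid-rich libraries (0 to 3069 with libraries left out), and the members became 1 with DESeq2 (0 to 2 with libraries left out). The interaction count of 0 became 25 with DESeq2 and 1 with limma voom (0 to 1 with libraries left out).

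The sign changed for values near 0 and for values that moved with the library-number term or the choroid-rich libraries. It also changed for *Fcgr4* in Slc11a2KD APP/PS1 against Control APP/PS1 when a single library was left out. In Slc11a2KD APP/PS1 against Slc11a2KD WT, *Fcgr1* was -0.15 under total-count scaling and -0.079 with the library-number term (-0.033 to 0.075 with libraries left out). In Slc11a2KD WT against Control WT, the library-number term gave *Fcgr3* -0.11, *Fcer1g* -0.26, *Fcrls* 0.027 and *Fcgrt* -0.063, and leaving out the choroid-rich libraries gave *Fcgr2b* 0.050, *Fcgr3* -0.096, *Fcer1g* -0.26 and *Fcgrt* -0.12. There limma voom gave *Fcgr2b* 0.0034 and *Fcer1g* -0.080, and total-count scaling gave *Fcer1g* -0.00020. With libraries left out the ranges were -0.096 to 0.018 for *Fcgr1*, -0.069 to 0.042 for *Fcgr2b*, -0.033 to 0.063 for *Fcgr3* and -0.12 to 0.11 for *Fcer1g*. In Slc11a2KD APP/PS1 against Control APP/PS1 the library-number term gave *Fcgr1* -0.052, *Fcgr3* -0.20, *Fcer1g* -0.24 and *Fcgrt* -0.12, total-count scaling gave *Fcgr3* -0.031 and upper-quartile scaling *Fcgr2b* 0.035, and *Fcgr4* ran from -0.34 to 0.20 with libraries left out. For the interaction, *Fcgr2b* was 0.020 with DESeq2 and with its size factors, 0.017 under a filter of 10 counts, 0.051 under upper-quartile scaling and -0.096 to 0.032 with libraries left out. *Fcgr3* was -0.032 under total-count scaling and -0.085 with the library-number term, and *Fcgrt* was -0.053 with that term. The log2 ratio of activating to inhibitory receptors in Slc11a2KD WT against Control WT was -0.19 without the choroid-rich libraries and -0.049 to 0.089 with libraries left out.

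For the list genes named, 731 of 839 recomputed values kept direction and call, and 108 kept direction only. Of 206 recomputed list counts 157 stayed within 1.5 times. Among the 7 members *Fcgr4* had the fewest counts, with 312 counts in its lowest library, and low counts make fold changes of near-absent immunoglobulin genes imprecise.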
